A study of Homo sapiens with 4 samples.

Results

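The genes described here are 6 members of the LIF and oncostatin M receptor system and of JAK-STAT signalling that were printed on a cancer gene array: the ligand LIF, the receptor chains LIFR, OSMR and CSF2RB, and the downstream genes PIM1 and STAT5B. They were taken by the gene name given to each spot, which gave 12 spots, 2 for each gene, of 3786 gene spots and 6 probes of 1856 gene probes in all. Gene expression was compared between untreated MDA-MB-231 cells, an established human line of triple-negative breast adenocarcinoma, and the same line exposed to rhLRG1, a recombinant form of the secreted glycoprotein LRG1, at 100 ng/mL. Both conditions were grown in RPMI medium with serum and L-glutamine and were harvested at 24 h. The samples analysed here were replicates 2 and 3 of each condition, 4 samples on 2 arrays, with both conditions of a replicate number hybridised to 1 array. Untreated RNA carried the shorter-wavelength Alexa dye and rhLRG1 RNA the longer-wavelength one on both arrays, so an effect of the dye and an effect of rhLRG1 cannot be told apart. All samples came from 1 cell line.

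LIF and oncostatin M are secreted cytokines of the interleukin-6 family. LIF signals through LIFR, and oncostatin M can signal through LIFR or OSMR, in each case together with gp130, the product of IL6ST. CSF2RB is the beta chain shared by the receptors for GM-CSF, interleukin-3 and interleukin-5, and is best known from blood cells. Receptor-bound JAK kinases phosphorylate STAT proteins, which enter the nucleus. STAT5B is one of these transcription factors, and PIM1 encodes a serine/threonine kinase whose gene is a known STAT target.

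LIFR and OSMR lay next to each other among the coding genes of chromosome 5 in the RefSeq annotation, and their promoters are shown because these receptor genes had the highest ratios among the 6. Windows from 250 bases before to 50 bases after a RefSeq start site were read from build GRCh38.p14. LIFR had 3 such windows, and 2 of them held the letters TTCNNNGAA, the palindromic core bound by STAT5, which are in capitals. The search of 1 strand of this palindrome covers both.
LIFR, chr5:38595356-38595655, minus strand: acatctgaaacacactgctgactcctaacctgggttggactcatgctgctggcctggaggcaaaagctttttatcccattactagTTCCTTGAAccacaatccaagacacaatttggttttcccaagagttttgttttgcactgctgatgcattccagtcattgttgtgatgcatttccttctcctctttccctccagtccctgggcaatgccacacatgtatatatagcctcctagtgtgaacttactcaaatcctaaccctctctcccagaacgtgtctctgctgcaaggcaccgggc
LIFR, chr5:38557418-38557717, minus strand: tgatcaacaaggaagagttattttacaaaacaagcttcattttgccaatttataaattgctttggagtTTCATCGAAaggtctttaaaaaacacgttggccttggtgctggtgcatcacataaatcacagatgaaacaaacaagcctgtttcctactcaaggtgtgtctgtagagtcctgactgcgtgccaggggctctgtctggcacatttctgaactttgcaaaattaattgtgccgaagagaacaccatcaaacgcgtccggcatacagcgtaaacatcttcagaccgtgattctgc
OSMR, chr5:38845762-38846061, plus strand: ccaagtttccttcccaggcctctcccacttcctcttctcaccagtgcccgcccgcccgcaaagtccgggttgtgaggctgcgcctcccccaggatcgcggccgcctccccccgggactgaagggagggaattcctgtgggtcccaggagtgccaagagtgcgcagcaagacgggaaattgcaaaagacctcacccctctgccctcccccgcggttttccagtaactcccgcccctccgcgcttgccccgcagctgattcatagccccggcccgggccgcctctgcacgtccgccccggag
The matches began at -165 and -182 relative to the start sites. The OSMR window held no match, and neither did the PIM1 or STAT5B window. LIF and CSF2RB had no window to search. The motif was found in 7.66% of 35116 promoter windows of the same length, and a match is only a match of letters. That share was not matched for base content. The LIFR windows with a match had a GC content of 47.3% and 42.3%, and the windows without one had 67.7% to 82%.

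Before the genes are described, the arrays need a short account. Median raw intensity over the gene spots was 508 in untreated and 397 in rhLRG1 cells for replicate 2, and 425 and 319 for replicate 3, while the median local background was lower in the untreated channel (42.9 and 48.9) than in the rhLRG1 channel (70.2 and 70.4). Before normalization the median log2 ratio of rhLRG1 over untreated was -0.31 over all gene probes, so the loess-normalized ratios below are relative to other probes of similar brightness. The Z ratios, made from channels without loess, are relative to all probes, and ratios given as unnormalized are relative to none. The line's markers VIM, CD44 and EGFR were 8.20 to 314 times their local background in the untreated channel. The probe of PTPRC, a leukocyte gene that this line should lack, was not at background either, at 6.32 and 5.64 times it. Brightness above background was thus not limited to genes that the line is known to express, and no level is read here as presence of a transcript. The reference genes ACTB and GAPDH had mean log2 ratios of -0.025 and -0.086.

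Replicate 3 needs a caution that touches each value below. On that array 2 spots, of IFNG and of RAI3, had a local background above their raw intensity, up to 5345 in the untreated and 3443 in the rhLRG1 channel. With these spots in the background fit (normexp), the fitted background mean was -58.2 and -115, against 1.84 and 0.930 without them. The SD of the ratios over all probes of replicate 3 was 0.125 with them and 0.206 without. The design called for a fit on all spots, and its values are the ones given first. The values without the 2 spots come from an alternative that was added after the results of the first fit had been seen, and they stand beside the tests.

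Among the 6 genes, LIFR and PIM1 were called higher and CSF2RB was called lower in rhLRG1-treated cells by the study's criterion, a Z ratio beyond 1.5 in size. A Z ratio is the difference between the conditions in standardised log10 intensity, divided by the SD of that difference over all probes, and it carries no p-value. LIF, OSMR and STAT5B were not called with the background correction used here. The study lists STAT5B as upregulated, and on the deposited net intensities its Z ratio was 2.28, a call of higher. Over all 1856 gene probes 6.73% were called higher and 6.63% were called lower, 13.4% in all. The log2 ratio had the same sign on both arrays for each of the 6 genes, as for 75.3% of all probes. In limma with Benjamini-Hochberg adjustment over all probes, none of the 6 passed an adjusted p of 0.05, and 3 of them, LIFR, OSMR and CSF2RB, had an unadjusted p below it. Over all probes 0 (0.00%) passed the adjusted and 433 (23.3%) the unadjusted threshold. Without the 2 spots, 396 probes (21.3%) passed the adjusted threshold, with LIFR, OSMR and CSF2RB among them. The Z ratio calls of the 6 genes were then the same, at 1.64 for LIFR, 3.52 for PIM1 and -2.44 for CSF2RB, with 4.74% of all probes called higher and 6.95% lower.

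**Figure D1:**
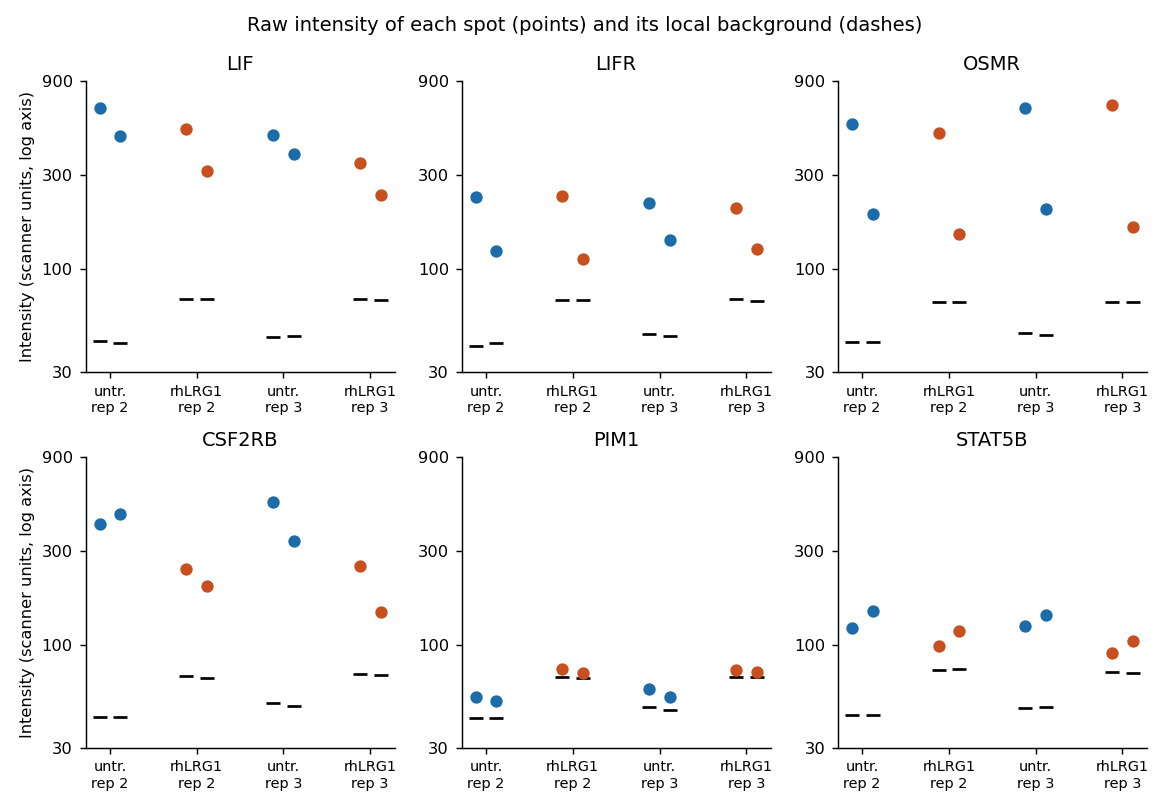
Raw intensity (points, scanner units, log axis) and mean local background (dashes) of the 2 spots of each gene in untreated (blue) and rhLRG1-treated (orange) cells of replicates 2 and 3. PIM1 lies close to its background in every sample, and the CSF2RB spots are dimmer in rhLRG1 than in untreated cells on both arrays.

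LIF (NM_002309), the ligand, was slightly lower in rhLRG1-treated cells relative to other probes. In the fit on all spots its difference passed neither the Z ratio nor the limma thresholds. On replicate 2 its first spot read 658 in untreated over a background of 42.9 and 513 in rhLRG1 cells over 70.5, and its second spot read 474 over 42.2 and 315 over 70.3. On replicate 3 the first spot read 477 over 45.0 and 346 over 70.2, and the second 384 over 45.6 and 238 over 69.3. Raw intensity was thus lower in rhLRG1 cells at every spot, as was the array as a whole. After normalization the spot log2 ratios ran from -0.21 to -0.047, and all 4 were below 0. The mean log2 ratio of the arrays was -0.12 ± 0.057 (moderated SE, n = 2 arrays), -0.13 on replicate 2 and -0.12 on replicate 3, with a limma adjusted p of 0.269. Without the 2 spots of replicate 3 the mean was -0.15 ± 0.048, with a limma p of 0.0295 unadjusted and 0.0929 adjusted. The Z ratio of LIF was -0.554, and its loess-normalized levels overlapped between the conditions.

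LIFR (NM_002310), the low-affinity LIF receptor chain, was higher relative to other probes at each of its 4 spot values. On replicate 2 its first spot read 231 in untreated cells over a background of 40.7 and 235 in rhLRG1 cells over 69.3, and its second 123 over 42.1 and 112 over 69.4. On replicate 3 the first spot read 217 over 47.0 and 204 over 70.6, and the second 140 over 45.8 and 126 over 69.2. Raw intensity was therefore nearly equal in the channels, whereas most probes were dimmer in the rhLRG1 channel. The spot log2 ratios were 0.54 and 0.38 on replicate 2 and 0.25 and 0.16 on replicate 3. The mean was 0.33 ± 0.079 (moderated SE, n = 2 arrays), a fold of 1.26, with 0.46 on replicate 2 and 0.21 on replicate 3. The unadjusted limma p was 0.00706 and the adjusted p was 0.143. Without the 2 spots, the mean was 0.50 ± 0.051, a fold of 1.41, with an adjusted p of 0.0129. The Z ratio was 1.67, rank 188 by size of 1856, and it was under the threshold without replicate 2 (1.45) and under plain background subtraction (1.46). Without normalization the log2 ratio was -0.20, against the median of -0.31 over all probes, and under median centring it was 0.11 (adjusted p 0.398). The normalized levels, from the fit on all spots, overlapped between the conditions, and those of replicate 3 lay above those of replicate 2 in both channels. Raw levels did not show this gap, at 177 and 179 in untreated and 173 and 165 in rhLRG1 cells on replicates 2 and 3. The replicate 3 fit had background means of -58.2 and -115, and its part in the gap was not tested.

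OSMR (NM_003999), the chain that pairs with gp130 for oncostatin M, was also higher relative to other probes, by less than the Z ratio threshold. On replicate 2 its first spot read 542 over a background of 42.4 in untreated and 493 over 68.2 in rhLRG1 cells, and its second 189 over 42.8 and 150.1 over 67.8. On replicate 3 the first spot read 655 over 47.6 and 681 over 68.3, and the second 202 over 46.1 and 164 over 68.0. The spots of this gene differed in brightness by up to 1.68 on the log2 scale within an array, the widest gap among the 6 genes. Their log2 ratios were 0.20 and 0.28 on replicate 2 and 0.32 and 0.15 on replicate 3. The spots within an array thus differed by more than the arrays did. The mean log2 ratio was 0.24 ± 0.057 (moderated SE, n = 2 arrays), a fold of 1.18, with 0.24 on replicate 2 and 0.23 on replicate 3. The unadjusted limma p was 0.00720 and the adjusted p was 0.143, against an adjusted p of 0.0227 and a mean of 0.30 ± 0.053 without the 2 spots. The Z ratio was 1.28, and it passed 1.5 without replicate 2, at 1.68. Without normalization the log2 ratio was -0.19, and under median centring 0.12 (adjusted p 0.432). The levels overlapped between the conditions.

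CSF2RB (NM_000395), the shared beta chain, had the largest log2 ratio in size among the 6 genes and was lower in rhLRG1-treated cells. On replicate 2 its first spot read 408 over a background of 42.8 in untreated and 242 over 69.2 in rhLRG1 cells, and its second 459 over 42.8 and 199 over 68.2. On replicate 3 the first spot read 532 over 50.3 and 252 over 71.4, and the second 334 over 48.7 and 147 over 70.0. Every untreated reading was above every rhLRG1 reading. Raw levels of the arrays did not overlap between the conditions for 56.8% of all probes, so this alone does not set the gene apart. The spot log2 ratios were -0.33 and -0.79 on replicate 2 and -0.53 and -0.34 on replicate 3, so that the spots of replicate 2 differed by more than the arrays did. The mean was -0.50 ± 0.062 (moderated SE, n = 2 arrays), a fold of 0.708, with -0.56 on replicate 2 and -0.44 on replicate 3. The unadjusted limma p was 3.52e-04 and the adjusted p was 0.143, against an adjusted p of 0.0111 and a mean of -0.62 ± 0.054 without the 2 spots. The Z ratio was -2.91, rank 33 of 1856, and it was -3.35 without replicate 2, -2.17 without replicate 3 and -1.41, short of the threshold, under plain background subtraction. In the fit on all spots, CSF2RB was the only member of the 6 whose normalized levels did not overlap between the conditions. This held for 4.58% of all probes in the lower direction and 5.66% in the higher. These levels ignore the pairing by array, and their overlap without the 2 spots of replicate 3 was not examined, so this does not set CSF2RB apart.

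**Figure D2:**
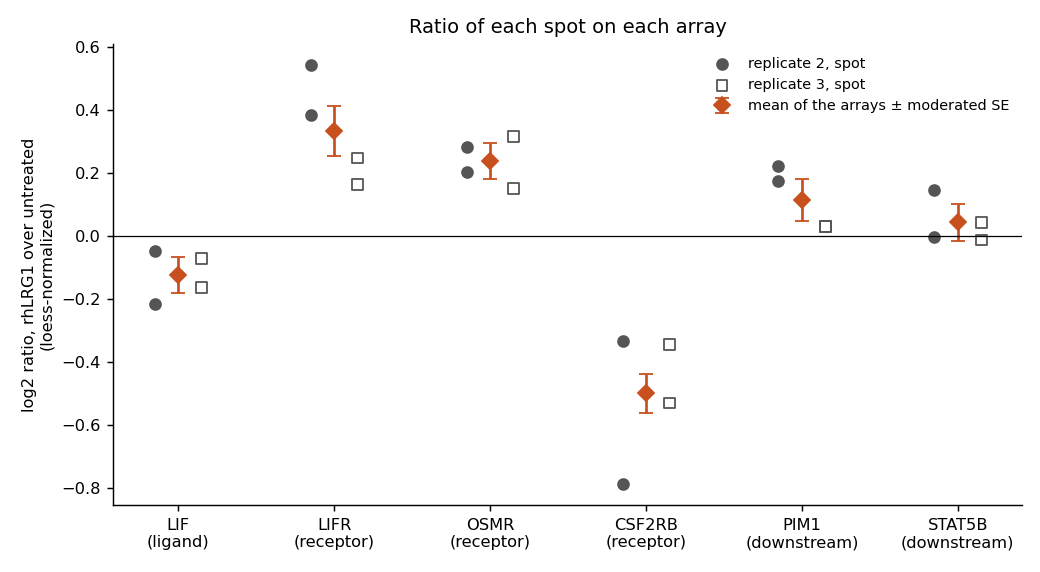
Loess-normalized log2 ratio of rhLRG1 over untreated for each spot of replicate 2 (filled circles) and replicate 3 (open squares), with the mean of the 2 arrays ± its moderated SE (orange), by gene and role. All LIFR, OSMR and PIM1 spots lie above 0, all LIF and CSF2RB spots lie below 0, and STAT5B lies on both sides.

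PIM1 (NM_002648), the downstream kinase, was called higher by the Z ratio but was read close to background. On replicate 2 its first spot read 54.3 over a background of 42.6 in untreated and 75.2 over 68.4 in rhLRG1 cells, and its second 52.0 over 42.5 and 72.2 over 67.7. On replicate 3 the first spot read 59.8 over 48.5 and 74.2 over 68.8, and the second 54.0 over 46.6 and 72.8 over 68.7. These were 1.16 to 1.27 times background in untreated cells and 1.06 to 1.10 times in rhLRG1 cells. All 4 untreated readings exceeded the background by more than 2 of its SDs, and 1 of 4 rhLRG1 readings did. The higher raw intensity in rhLRG1 cells went with the higher background of that channel. The spot log2 ratios were 0.22 and 0.18 on replicate 2, and both were 0.030 on replicate 3. The mean was 0.11 ± 0.067 (moderated SE, n = 2 arrays), with a limma adjusted p of 0.360. Without the 2 spots of replicate 3 the mean was 0.17 ± 0.050, with a limma p of 0.0203 unadjusted and 0.0723 adjusted. The Z ratio was 2.84, rank 35 by size, whereas the log2 ratio ranked 701. Without replicate 2 the Z ratio was 1.47, under the threshold, and on loess-normalized channels it was 0.803. Without normalization the log2 ratio was -0.089, and under median centring 0.22 (adjusted p 0.270).

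Calls varied with brightness, and PIM1 and STAT5B were both among the 185 dimmest gene probes when the probes were divided into 10 groups by brightness. In that group 23.2% of the probes were called higher and 6.49% lower. In the next group, which held LIFR, 4.84% were called higher and 23.1% lower, and in the group of CSF2RB 6.99% were called higher and 9.68% lower. The part of brightness in the PIM1 call was not tested.

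STAT5B (NM_012448), the transcription factor, showed no direction that its spots shared. On replicate 2 its first spot read 121 over a background of 44.1 in untreated and 98.9 over 74.8 in rhLRG1 cells, and its second 149 over 44.1 and 117 over 75.2. On replicate 3 the first spot read 125 over 47.7 and 90.8 over 72.7, and the second 141 over 48.1 and 105 over 71.6. Raw intensity was lower in rhLRG1 cells at all 4 readings. After loess normalization the first spot had log2 ratios of -0.0039 and -0.012 on replicates 2 and 3, and the second 0.15 and 0.043. The mean was 0.043 ± 0.058 (moderated SE, n = 2 arrays), with a limma adjusted p of 0.678 and a Z ratio of 0.279. Without the 2 spots of replicate 3 the mean was 0.068 ± 0.048, with a limma adjusted p of 0.359.

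Among the 6 genes, the ratio of STAT5B moved most between the reported setting and the deposited net intensities. Plain subtraction of the local background, before any normalization, gave spot log2 ratios between -2.09 and -1.32. The deposited net intensities gave ratios between 0.55 and 0.71, with a mean of 0.63 and a Z ratio of 2.28. In the deposited values the untreated channel was the raw intensity minus its background, except at 0 for the 2 spots of replicate 3 that lay below background, and the rhLRG1 channel had in addition been multiplied by a factor that varied from spot to spot. This factor had a median of 1.42 on replicate 2 and 1.51 on replicate 3 over the gene spots, and was 3.71 to 6.24 at the STAT5B spots. It was 2.30 to 3.01 at the PIM1 spots, 1.73 to 3.52 for LIFR, 1.26 to 2.22 for OSMR, 1.495 to 1.995 for CSF2RB and 1.39 to 1.66 for LIF. Of the 24 spot values of the 6 genes, 23 had a background-subtracted ratio below 1 before any factor or normalization, the exception being the first OSMR spot of replicate 3 at 0.010 on the log2 scale.

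**Figure D3:**
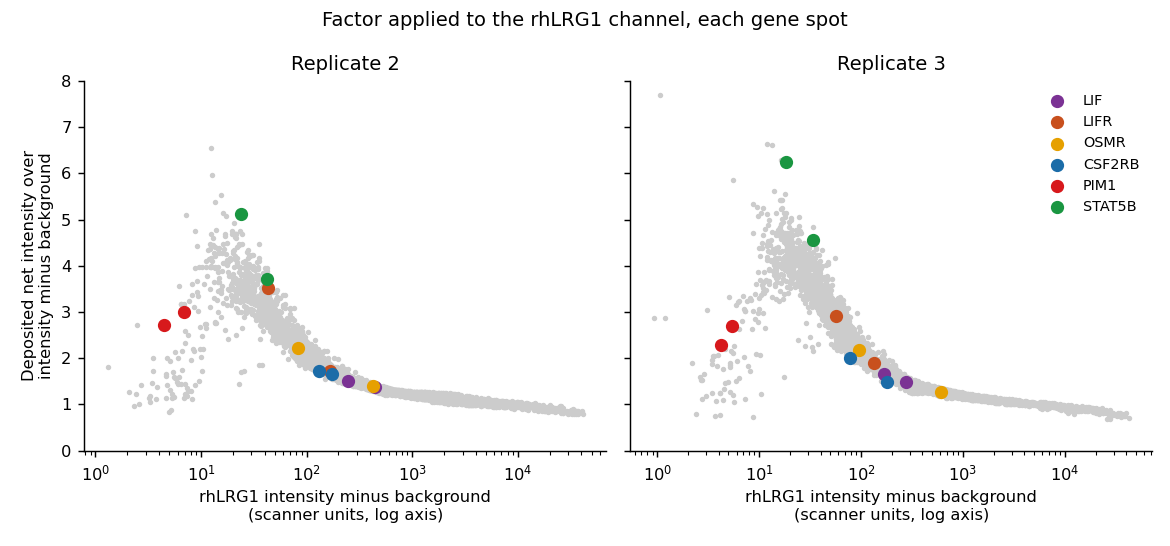
Deposited net intensity of the rhLRG1 channel divided by raw intensity minus local background (factor, linear axis) against raw intensity minus background (scanner units, log axis), for all gene spots (grey) and the 6 genes (coloured), by replicate. The factor is near 1 for bright spots and reaches 6.24 at a STAT5B spot of replicate 3.

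The wider pathway was described with a list of 108 JAK-STAT genes, of which 53 had a probe. These were 17 of 28 ligands, 15 of 34 receptor chains, 0 of 4 kinases, 3 of 7 STATs, 6 of 20 regulators and 12 of 15 target genes. By the Z ratio 2 were called higher and 1 was called lower, and all 3 were LIFR, PIM1 and CSF2RB. These calls were made on 1 value per gene. Counted by probe, as over the whole array, 2 of the list's 55 probes were called higher and 2 lower, 7.27% against 13.4% of all probes. The fourth call was 1 of the 2 BCL2 probes, which the mean over that gene's probes did not show. The median log2 ratio of the 53 genes was -0.017, against -0.0061 over all probes, with 22 above 0 and 31 below 0, or 25 and 28 under median centring. In limma 10 of the 55 probes (18.2%, against 23.3% of all probes) had an unadjusted p under 0.05 and 0 an adjusted p under 0.05. Without the 2 spots 7 (12.7%, against 21.3%) passed the adjusted threshold. The list thus held a lower share of calls than the array by the Z ratio and the unadjusted p. The same held for the adjusted p without the 2 spots. Its 15 receptor probes, LIFR, OSMR and CSF2RB among them, went the other way in limma. Of these, 7 (46.7%) had an unadjusted p under 0.05, and 6 (40%) passed the adjusted threshold without the 2 spots. By the Z ratio 13.3% of the receptor probes were called. Both limma counts of receptor probes include LIFR, OSMR and CSF2RB, and the members and lists were chosen with earlier results of these data known. The higher receptor share therefore cannot be read as a result about receptor genes. None of these differences was tested.

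Among the ligands, IL13, a T-helper cytokine, was at -0.27 ± 0.11 (log2 ratio, moderated SE) with an adjusted p of 0.208, at -0.48 on replicate 2 and -0.067 on replicate 3, and its lowest reading was 1.17 times background. Oncostatin M, OSM, was at 0.12 ± 0.057 with an adjusted p of 0.291. OSM neighbours LIF on chromosome 22, and LIF itself was at -0.12. Among the receptor chains outside the 6, IL11RA, the interleukin-11 receptor, was at -0.22 ± 0.057 and IL2RA, the interleukin-2 receptor alpha chain, at -0.16 ± 0.061, with adjusted p-values of 0.145 and 0.197. IL6ST, which encodes gp130 and is named here for that role, was at 0.014 ± 0.057 with an adjusted p of 0.905, and its arrays read 0.029 and -0.0011. Of the 3 receptor chains LIFR, OSMR and IL6ST, the first 2 were thus above IL6ST on both arrays.

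STAT3, the main STAT of the gp130 receptors, was at -0.12 ± 0.057 (adjusted p 0.278). Among the regulators, CBL, a ubiquitin ligase, was at -0.14 and turned to 0.10 under median centring, and SOCS2, a feedback inhibitor of cytokine receptors, was at -0.11. Among the targets outside the 6, PIM2, a kinase related to PIM1, was at -0.18 ± 0.059 (adjusted p 0.177). Under median centring PIM2 was at -0.0053. BCL2, the apoptosis inhibitor, was at -0.15 as the mean of 2 probes that disagreed in sign, at -0.33 and 0.036. The first of these probes had a Z ratio of -1.98, a call of lower, with an unadjusted limma p of 0.0111 and an adjusted p of 0.145, and the other had a Z ratio of 0.201.

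Without the 2 spots, the 7 genes of the list under the adjusted threshold were LIFR, OSMR, CSF2RB, IL13 at -0.38, IL11RA at -0.26, IL2RA at -0.27 and IL13RA2, a decoy receptor for interleukin-13, at 0.19. IL13RA2 was named after its value had been seen.

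**Figure D4:**
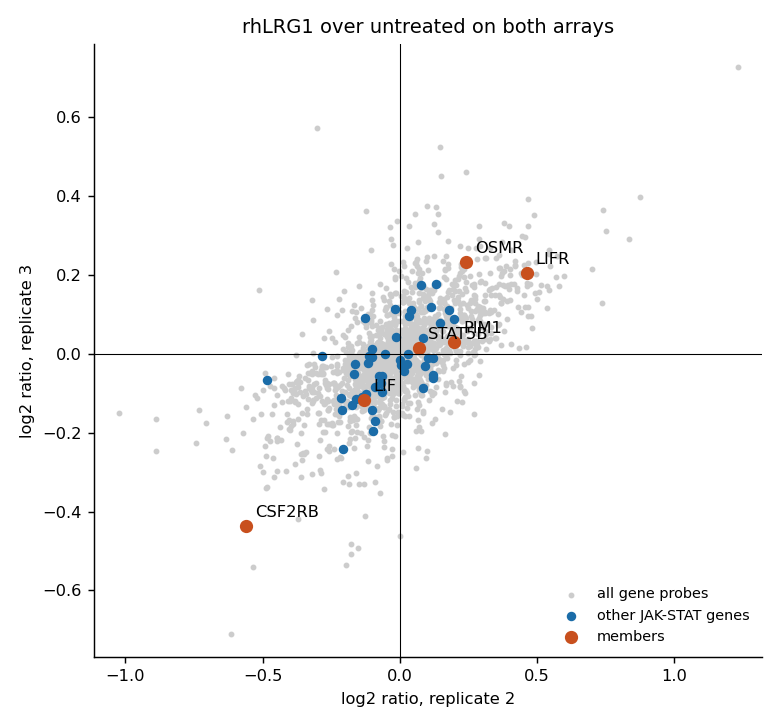
Loess-normalized log2 ratio of rhLRG1 over untreated on replicate 3 against replicate 2, for all 1856 gene probes (grey), the other 47 measured JAK-STAT genes (blue) and the 6 genes described (orange, named). CSF2RB lies at -0.56 and -0.44, apart from the other genes of the list, and LIFR and OSMR lie at the upper right.

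The genes whose ratios on the 2 arrays lay nearest to each member, by Euclidean distance, were CYP19A1 and SHC1 for LIF, MLF1 and HHAT for LIFR, RBL2 and MED1 for OSMR, TFG and CYP27A1 for CSF2RB, NEK4 and GRB14 for PIM1, and ANP32D and PRDM16 for STAT5B. The distances were at most 0.019 on the log2 scale for 5 of the members. For CSF2RB they were 0.11 and 0.12, so few probes had a ratio like its own. With 2 arrays such likeness is a description of position only.

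**Figure D5:**
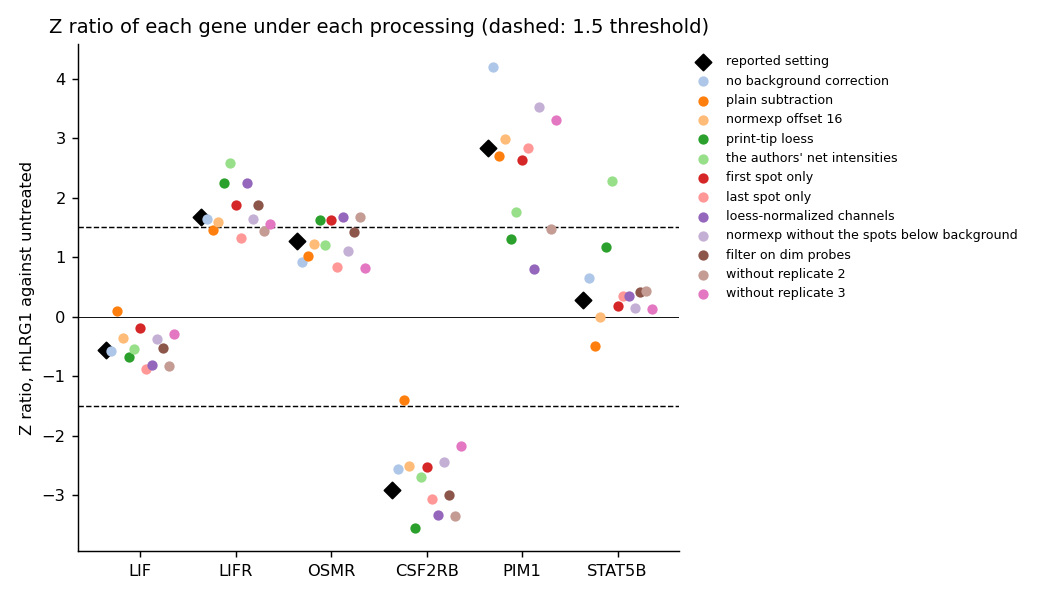
Z ratio of each gene as reported (black diamonds) and under each alternative processing (coloured points), with dashed lines at the 1.5 threshold. CSF2RB stays below -1.4 and LIFR above 1.3 throughout, whereas PIM1 ranges from 0.803 to 4.195 and STAT5B from -0.493 to 2.28.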

How the data were processed

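Raw, background and net spot intensity values of both channels were deposited by the authors for a printed 2-colour cancer array. According to the study's methods, these were made with genArise at default parameters, and genes whose Z ratio exceeded 1.5 in size were taken as changed. The submitters' processing notes name R 4.2.2. Deposited net intensities served as an alternative, and deposited ratio columns, which hold the authors' own comparison, were not used. The third biological replicate that the methods mention was not analysed here.

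Intensities were corrected with normexp (offset 50) on all spots and normalized by loess within each array with the 54 control spots at weight 0, and the spots of a probe were averaged. Log2 ratios were fitted with limma 3.58.1 (R 4.3.3) over 1856 gene probes with Benjamini-Hochberg adjustment. The Z ratio used log10 background-corrected channels. Of the probes, 1701 were named by accession through RefSeq, 60 by symbol, 15 by synonym and 5 by the array alone, and 75 had no name. The labels place same-numbered samples on 1 array. Their deviations from the condition means correlated at 0.945 over the probes in the fit on all spots. That fit moved replicate 3 in both channels, and the correlation without the 2 spots was not examined. The number of arrays, 2, limits the precision. Nothing was counted, so no counting interval applies.

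On replicate 3, 2 spots below their local background moved the normexp fit. Leaving them out was chosen after the results on all spots had been seen, so it is reported as an added alternative and not as the first result.

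Genes named were the 6 members, other genes of the JAK-STAT list with a Z ratio beyond 1.5, the 2 with the largest log2 ratio in size in each role, the 2 nearest to each member in both ratios, and ACTB and GAPDH. Some genes that this rule or the marker list takes in are not reported here. Marker probes served as a check of the cell line. The members and lists were chosen with earlier results of these data known. The methods were run on simulated data made from the untreated intensities, where the required check was the direction of known changes. That check does not cover the rate of false calls.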

Additional observations from a re-analysis of the deposited data

How the results depend on the processing

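Every statement about these genes rests on 2 arrays with 1 dye orientation, and the depth that limits it is the signal over background, least for PIM1 and STAT5B. The alternative that left 2 spots of replicate 3 out of the background fit was chosen after seeing the data. It moved the limma count at an adjusted p under 0.05 from 0 to 396 and the unadjusted count from 433 to 684. It gave LIFR 0.50, OSMR 0.30 and CSF2RB -0.62 on the log2 scale, with adjusted p-values of 0.0129, 0.0227 and 0.0111, and 2 JAK-STAT genes called lower. Over all alternatives with a test, the adjusted p ran from 3.45e-07 to 0.9998 for LIFR (under 0.05 in 5 of 13), from 0.00138 to 0.9998 for OSMR (5 of 13), from 5.04e-07 to 0.9998 for CSF2RB (7 of 13), from 7.33e-05 to 0.9998 for PIM1 (2 of 12), from 1.50e-06 to 0.9998 for STAT5B (3 of 13, of which 2 were above 0 and 1 was below) and from 0.0620 to 0.9998 for LIF (0 of 13). The cause of the changes below was not tested.

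Without background correction, LIFR (0.47), OSMR (0.28) and CSF2RB (-0.60) passed the adjusted threshold, the limma counts were 432 adjusted and 680 unadjusted, and 2 JAK-STAT genes were called lower. Under plain subtraction LIFR (0.79), OSMR (0.38), CSF2RB (-0.75), PIM1 (0.63) and STAT5B (0.27) passed, with 422 adjusted and 675 unadjusted calls. There the Z ratio turned to 0.0886 for LIF and -0.493 for STAT5B and lost the threshold for LIFR (1.46) and CSF2RB (-1.41), with 1 JAK-STAT gene and 54 probes called higher. With an offset of 16 the Z ratio of STAT5B was -0.0028 and 2 JAK-STAT genes were called lower.

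Median centring turned the STAT5B log2 ratio to -0.18, brought LIFR to 0.11 and OSMR to 0.12 and PIM1 to 0.22, and left 0 adjusted calls. No normalization turned LIFR to -0.20, OSMR to -0.19, PIM1 to -0.089 and STAT5B to -0.49 and gave CSF2RB -0.90, with STAT5B (adjusted p 0.0408) and CSF2RB past the threshold and 503 adjusted and 752 unadjusted calls. With print-tip loess the Z ratio was 1.62 for OSMR and 1.31 for PIM1, and with loess-normalized channels 1.67 and 0.803, each with 3 JAK-STAT genes called lower. The deposited net intensities gave LIFR 0.72, OSMR 0.33, CSF2RB -0.74, PIM1 0.48 and STAT5B 0.63, all past the adjusted threshold, a STAT5B Z ratio of 2.28, 603 adjusted and 745 unadjusted calls, and 3 JAK-STAT genes called lower.

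With the first spot of each probe alone, STAT5B was at -0.0080, the OSMR Z ratio was 1.62, 1 probe passed the adjusted threshold and 2 JAK-STAT genes were called lower. With the last spot alone, CSF2RB passed at -0.57, the LIFR Z ratio was 1.33, 30 probes passed, and 1 JAK-STAT gene was called higher and 3 lower. With spots kept apart, LIFR (0.33), OSMR (0.24), CSF2RB (-0.50) and 201 probes in all passed. That setting entered the 2 spots of a probe as separate values, with a consensus correlation of 0.417. Such spots are not further RNA samples, and these passes are among the counts over alternatives given above. A filter on dim probes removed PIM1 and left 1 JAK-STAT gene called higher.

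Without a replicate block, that is without the pairing by array, 0 probes passed the adjusted and 0 the unadjusted threshold, with an adjusted p of 0.9998 for each of the 6 genes at the same log2 ratios. Leaving out either replicate gave a Z ratio of 1.45 to 1.55 for LIFR, 0.813 to 1.68 for OSMR and 1.47 to 3.30 for PIM1, and 1 to 2 JAK-STAT genes called higher and 2 to 3 lower. With 1 array left no limma test was possible. Of all alternative values, 165 were classed as the same. The ratios among them kept their direction and their side of the threshold or stayed within the replicate spread. The counts among them were not all equal to the reported ones, as with 85 probes called higher without background correction against 125. Of the values not classed as the same, 29 were counts that moved, 26 gained the threshold, 7 lost it and 9 reversed in direction.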
